A study of Mus musculus with 6 samples.

Results

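The Toll-like receptors are the family of membrane proteins with which macrophages sense microbial products, and Unc93b1 is the chaperone that carries several of them out of the endoplasmic reticulum. Their messenger RNA was followed in RAW 264.7 cells, a macrophage-like line grown from a mouse tumour induced by a leukaemia virus. The 10 genes described are Tlr1, Tlr2, Tlr3, Tlr4, Tlr6, Tlr7, Tlr8, Tlr9, Tlr13 and Unc93b1, taken by gene name from a deposited table of 22027 genes. All 10 were found, and all 10 had a mean of at least 10 normalised reads, the level a gene needed to be tested, as had 11591 genes in all. The cells were wild type per the labels and were transfected with 10 pmol of siRNA for 48 h. By the sample titles, 3 libraries are siCTL, transfected with the control named NT siRNA in the protocol, and 3 are siTET3, transfected with a Tet3 siRNA of 1 sequence. Grouping relied on the titles, because the treatment entry reads siTET3 for all 6 samples. No Toll-like receptor ligand is named in the labels. The comparison addressed the effect of TET3, an enzyme that oxidises methylated cytosine, on gene expression in this line.

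Toll-like receptors divide by where they meet their ligands. Tlr2, paired with Tlr1 or Tlr6, senses bacterial lipopeptides at the cell surface, and Tlr4 senses lipopolysaccharide there with its partner Ly96. Tlr3, Tlr7, Tlr8, Tlr9 and Tlr13 act in endosomes, where they sense nucleic acid, and Unc93b1 delivers these receptors. Most of the family signals through the adaptor Myd88 to nuclear factor kappa B and interferon regulatory factors, while Tlr3 signals through Ticam1, and Tlr4 uses both.

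The values are read counts that the authors scaled by 1 size factor per library, called normalised reads here. The 6 libraries held between 29587171 and 61709131 reads on genes, so that 1 read was worth between 0.634 and 1.27 normalised reads. Tet3 itself was at 2171, 1911 and 2027 normalised reads in siCTL replicates 1, 2 and 3 and at 1939, 1980.4 and 1950.4 in the siTET3 replicates. Its log2 change was -0.06 (limma adjusted p = 0.699). Without siCTL replicate 2, all siTET3 values of Tet3 lay below those of siCTL, as they did for 20.6% of genes tested. The change was then -0.10, from -0.24 to 0.04 (limma adjusted p = 0.354). Since Tet3 passed in neither fit, the treated samples are called the libraries labelled siTET3. Macrophage markers such as Csf1r, Cd68 and Lyz2 were high in every library, although Mertk lay between 0 and 34.2 normalised reads, and the summed level of the 10 macrophage markers ran from 467934 to 555705. siCTL replicate 2 stood apart. Its Pearson r with the other libraries on the log2 scale lay between 0.929 and 0.947, against 0.981 to 0.991 among the other 5. It also held 286 normalised reads of the collagen gene Col1a2 and 109 of the growth factor receptor gene Pdgfra, against at most 3.27 and 5.79 elsewhere, and its summed level of 5 fibroblast markers was 395 against 7.13 to 15.05. Col1a2 and Pdgfra made up that whole sum, so the listed fibroblast markers Dcn and Lum had no reads in siCTL replicate 2. Dcn or Lum did have reads in some of the other libraries, and the remaining marker, Col1a1, was at 0 in all 6. Fn1, Sparc and Col3a1, named after their values were seen, were at 707, 257 and 144 normalised reads in siCTL replicate 2. Elsewhere they reached at most 32.3, 7.64 and 2.55. The sums of B cell and T cell markers stayed at or under 19.4 and 2.04, those of dendritic cell markers at 57.2 to 89.7, and all 5 epithelial markers were at 0. The results for the 10 genes are therefore given with and without siCTL replicate 2. The part of these other cell type genes in the results was not tested. Whether the replicates were separate cultures is not in the labels. The p-values therefore reflect variation among these libraries alone, part of which may be technical.

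The chaperone was far more abundant than any receptor it serves. Levels of different genes were set side by side as TPM, the reads per annotated exon length scaled to the same total in every library. In the libraries labelled siTET3, Unc93b1 stood at 419 ± 23.0 TPM and Tlr2 at 190.4 ± 6.75 TPM (SD, n = 3). A middle tier followed, with Tlr13 at 39.4 ± 3.11 TPM, Tlr4 at 36.1 ± 1.12 TPM, Tlr7 at 31.1 ± 3.35 TPM and Tlr1 at 30.3 ± 1.56 TPM (SD, n = 3). Within that tier every neighbouring pair in the order overlapped between libraries. Below it came Tlr6 at 19.0 ± 1.13 TPM, Tlr9 at 9.31 ± 0.462 TPM, Tlr3 at 3.18 ± 0.0747 TPM and Tlr8 at 0.447 ± 0.0248 TPM (SD, n = 3), and no neighbours among these overlapped. The remaining mouse receptors, Tlr5 for flagellin and Tlr11 and Tlr12 for profilin, were at 0 in all 6 libraries. A count of 0 allows up to 3 reads, or 1.90 to 3.82 normalised reads at these depths, and covers counting error only.

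In siCTL the order was nearly the same but the spread was wider. Unc93b1 was at 377 ± 57.6 TPM, Tlr2 at 169 ± 45.1 TPM, Tlr13 at 28.3 ± 13.0 TPM, Tlr4 at 27.0 ± 16.4 TPM, Tlr1 at 19.9 ± 7.96 TPM and Tlr7 at 19.1 ± 11.2 TPM (SD, n = 3). From Tlr13 down to Tlr9, every pair of neighbours overlapped between the siCTL libraries, and siCTL replicate 2 held the lowest value of each of these genes but Tlr9. In that library Tlr7 was at 6.15 TPM, below Tlr9 at 8.61 TPM, whereas Tlr7 was above Tlr9 in the other 5 libraries. The ratio of Unc93b1 to the summed endosomal receptors, in TPM, was 10.8 in siCTL replicate 2 and 4.35 to 5.84 in the other 5. Tlr2 made up 68.3% to 79.7% of the summed surface receptors in TPM over all 6 libraries, and Tlr13, which senses bacterial ribosomal RNA in mice, 46.4% to 50.5% of the summed endosomal receptors. Tlr7 made up 21.4% of the endosomal sum in siCTL replicate 2 and 34.6% to 38.8% elsewhere.

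**Figure D1:**
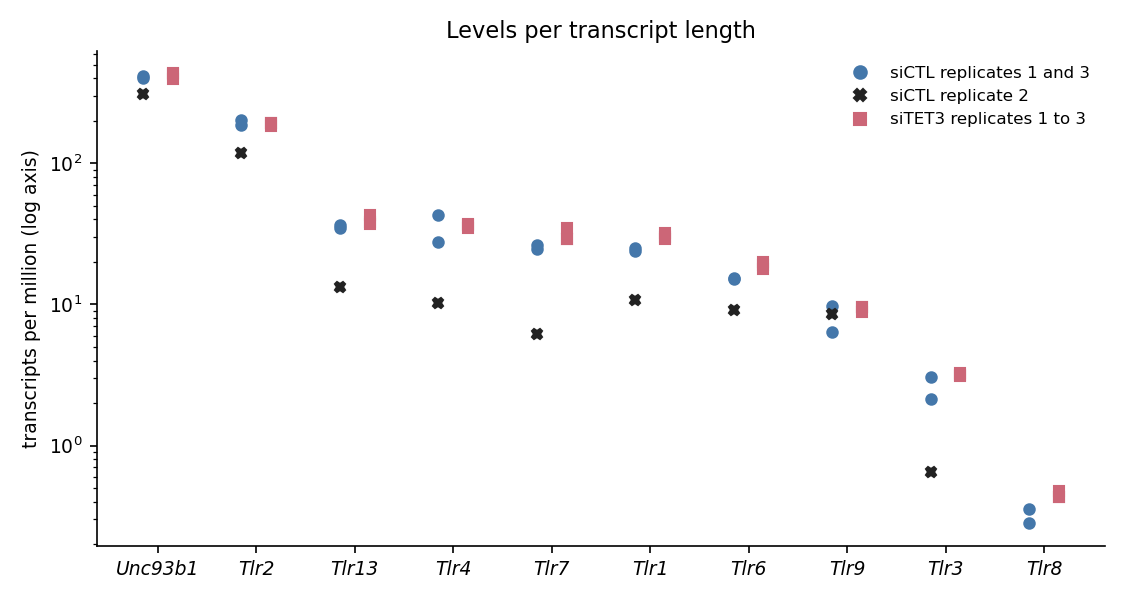
Level of each gene in each library in TPM on a log axis, with the genes in the order of their mean in the libraries labelled siTET3. The genes run from 419 TPM for Unc93b1 to 0.447 TPM for Tlr8 in that group, siCTL replicate 2 (crosses) lies lowest for every gene but Tlr9, and its value of 0 for Tlr8 cannot be drawn on this axis.

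Among the 4 surface receptors, none passed limma over all genes tested. The groups did not overlap for Tlr1 and Tlr6, where 16.1% of genes tested were likewise higher without overlap. Tlr2 (ENSMUSG00000027995.10, chr3:83836272-83841767, minus strand, GRCm38) was at 7780.1, 5223.5 and 7469 normalised reads in siCTL replicates 1, 2 and 3 and at 6879.7, 7307 and 7193 in the siTET3 replicates. The siTET3 values lay between siCTL replicate 2 and the other siCTL libraries. Its log2 change was 0.08 with a 95% interval from -0.31 to 0.48 (limma adjusted p = 0.760). Without siCTL replicate 2 the groups no longer overlapped, where 20.6% of genes tested were likewise lower without overlap. The log2 change of Tlr2 was then -0.10, from -0.23 to 0.03 (limma adjusted p = 0.328).

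Tlr1 and Tlr6, the alternative partners of Tlr2, are neighbours on chromosome 5 and both lay higher in every library labelled siTET3 than in any siCTL library. Tlr1 (ENSMUSG00000044827.10, chr5:64924679-64933563, minus strand) was at 1014, 528 and 1112 normalised reads in the siCTL replicates and at 1247, 1208 and 1316 in the siTET3 replicates. Tlr6 (ENSMUSG00000051498.6, chr5:64952031-64960097, minus strand) was at 734, 497 and 749 against 832, 884 and 922. The gap between the groups was small beside the distance of siCTL replicate 2 from its own group. For Tlr1 the log2 change was 0.58, from -0.09 to 1.24 (limma adjusted p = 0.382), and without siCTL replicate 2 it was 0.24, from 0.06 to 0.42 (limma adjusted p = 0.134). For Tlr6 it was 0.44, from 0.02 to 0.85 (limma adjusted p = 0.374), and 0.24, from 0.06 to 0.43, without that library (limma adjusted p = 0.138). Neither gene passed in either fit, although both intervals without siCTL replicate 2 lay above 0.

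The counts of these partners may not be fully separate, because the genes share sequence. Of the 50-base windows of Tlr1 exons, 454 occur also in Tlr6, or 14.8% of the windows of Tlr1 and 12.3% of those of Tlr6. No other pair of the 10 genes shares such a window, and Tlr4 shares 1 window with an olfactory receptor gene. The longest run common to both lies in a coding exon, at chr5:64925537-64925765 in Tlr1 and chr5:64953828-64954056 in Tlr6 (both minus strand, GRCm38). It spans coding bases 1468 to 1696 of Tlr1 and 1507 to 1735 of Tlr6. It is shown because a read falling wholly inside it cannot be given to either gene by its sequence, and how the authors counted such reads is not given in the sources used here. It is written in lower case throughout, since every base is the same in both genes.
Tlr1 and Tlr6: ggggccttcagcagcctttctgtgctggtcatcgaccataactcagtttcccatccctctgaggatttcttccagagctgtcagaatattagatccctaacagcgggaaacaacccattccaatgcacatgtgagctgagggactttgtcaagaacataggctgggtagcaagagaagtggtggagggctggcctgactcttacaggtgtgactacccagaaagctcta

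Tlr4 (ENSMUSG00000039005.13, chr4:66827584-66930284, plus strand), the lipopolysaccharide receptor, was at 3044, 838 and 2040.2 normalised reads in the siCTL replicates and at 2578, 2515 and 2386 in the siTET3 replicates. The siTET3 libraries lay within the siCTL range and much closer together. Its log2 change was 0.52, from -0.53 to 1.58 (limma adjusted p = 0.502). Without siCTL replicate 2 it was -0.00, from -0.37 to 0.37, so that the whole positive value rested on that library.

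None of the 5 endosomal receptors passed limma either. The groups did not overlap for Tlr7 and Tlr8, where 16.1% of genes tested were likewise higher without overlap. Tlr13 (ENSMUSG00000033777.3, chrX:106143204-106160493, plus strand) was at 2021, 844 and 1968 normalised reads in the siCTL replicates and at 1994, 2047 and 2271 in the siTET3 replicates. The groups overlapped, and the log2 change of 0.49, from -0.32 to 1.30 (limma adjusted p = 0.442), became 0.08, from -0.10 to 0.25, without siCTL replicate 2 (limma adjusted p = 0.570). Tlr7 (ENSMUSG00000044583.13, chrX:167304929-167330558, minus strand), which senses single-stranded RNA, was at 1373, 369 and 1332 against 1486, 1489 and 1757. The siTET3 libraries were all higher, with a log2 change of 0.84, from -0.36 to 2.04 (limma adjusted p = 0.408), and of 0.22, from 0.00 to 0.43, without siCTL replicate 2 (limma adjusted p = 0.216).

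Tlr8 (ENSMUSG00000040522.5, chrX:167242696-167264329, minus strand) lies beside Tlr7 on the X chromosome and was barely present. Its reads numbered 14, 0 and 21 in the siCTL replicates and 19, 26 and 15 in the siTET3 replicates, or 16.2, 0, 13.3, 19.4, 21.3 and 19.1 normalised reads in that order. The count of 0 in siCTL replicate 2 allows up to 3.80 normalised reads. The log2 change of 1.74 had an interval from -0.93 to 4.40 (limma adjusted p = 0.423), and it was 0.41, from -0.22 to 1.05, without siCTL replicate 2 (limma adjusted p = 0.395). Per length, Tlr7 was 61.6 to 87.9 times as abundant as Tlr8 in the 5 libraries where Tlr8 had reads.

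Tlr3 (ENSMUSG00000031639.12, chr8:45395665-45411080, minus strand), which senses double-stranded RNA, was at 204, 49.4 and 146 normalised reads in the siCTL replicates and at 203, 212 and 202 in the siTET3 replicates. The siTET3 values were tightly grouped and overlapped those of siCTL. Its log2 change was 0.85, from -0.34 to 2.03 (limma adjusted p = 0.405), and 0.25, from -0.13 to 0.63, without siCTL replicate 2 (limma adjusted p = 0.390). An annotated antisense gene, Gm45542, overlaps Tlr3. The libraries were stranded, but no statement says that strand was used in counting. Whether the reads of both were kept apart is therefore not known.

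Tlr9 and Unc93b1 had small changes with all libraries, as had Tlr2. Tlr9 (ENSMUSG00000045322.10, chr9:106222598-106226883, plus strand), the receptor for unmethylated CpG DNA, was at 281, 439.5 and 444 normalised reads in the siCTL replicates and at 415, 417 and 376 in the siTET3 replicates. It was the only gene of the 10 that was not lowest in siCTL replicate 2, and here siCTL replicate 1 was lowest. Its log2 change was 0.08, from -0.39 to 0.55 (limma adjusted p = 0.808), and 0.19, from -0.26 to 0.63, without siCTL replicate 2 (limma adjusted p = 0.587). Unc93b1 (ENSMUSG00000036908.16, chr19:3935186-3949340, plus strand) was at 15591.5, 13857 and 16686.5 against 16281, 16431.5 and 14642. Its groups overlapped, and its log2 change was 0.04, from -0.22 to 0.30 (limma adjusted p = 0.829), the narrowest interval of the 10 with all libraries. Without siCTL replicate 2 it was -0.03, from -0.20 to 0.14 (limma adjusted p = 0.816).

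**Figure D2:**
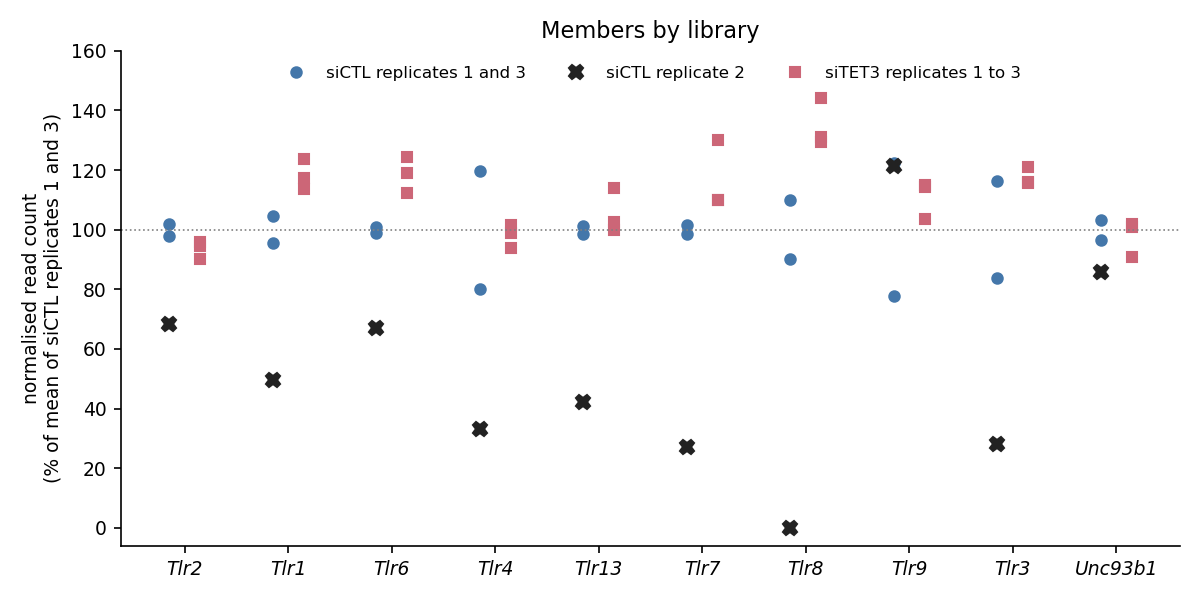
Normalised read count of each gene in each library, as a percentage of the mean of siCTL replicates 1 and 3, with circles for those replicates, crosses for siCTL replicate 2 and squares for the libraries labelled siTET3. siCTL replicate 2 sits between 0% for Tlr8 and 85.9% for Unc93b1, except for Tlr9 at 121%, and is the lowest of the 6 libraries for 9 of the 10 genes.

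Counted together, 0 of the 10 genes were called higher and 0 lower by limma at an adjusted p under 0.05 with all 6 libraries, where 0.293% of genes tested were called higher and 0.0604% lower. At an unadjusted p under 0.05 there was 1, Tlr6, beside 13.2% of genes tested. On recovered reads, the quasi-likelihood test of edgeR called 0 of the 10, where 0.285% of genes were higher and 0.0604% lower. DESeq2 called 0 as well, where 1.86% of genes were higher and 1.89% lower. In the authors' deposited table the adjusted p-values of the 10 run from 0.295 for Tlr6 to 0.906 for Tlr9, where 1.55% of genes are listed as higher and 1.39% as lower. With siCTL replicate 2 left out, limma again called 0 of the 10, where 1.70% of genes were higher and 1.06% lower, and 3 genes, Tlr1, Tlr6 and Tlr7, had an unadjusted p under 0.05, beside 22.6% of genes tested. Limma with a weight per library, an alternative chosen after seeing the data, called 2 of the 10 higher, Tlr3 and Tlr6, and 0 lower, where 13.0% of genes were called higher and 11.1% lower. Their log2 changes in that fit were 0.46 and 0.23 (limma adjusted p = 0.0384 for both).

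The groups did not overlap for 4 of the 10 genes, all higher in the libraries labelled siTET3 (Tlr1, Tlr6, Tlr7 and Tlr8), where 16.1% of genes tested were higher without overlap. None of the 10 was lower without overlap, where 15.5% of genes tested were. After siCTL replicate 2 was left out, the same 4 genes stayed higher without overlap, beside 21.2% of genes, and Tlr2 became lower without overlap, beside 20.6%. All 10 log2 changes were positive with all libraries, with a median of 0.51, while 49.3% of all genes tested were positive and their median was -0.00. Without siCTL replicate 2, 7 were positive and 3 negative, with a median of 0.20 beside 0.01 over all genes tested, and Tlr2, Tlr4 and Unc93b1 had turned.

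**Figure D3:**
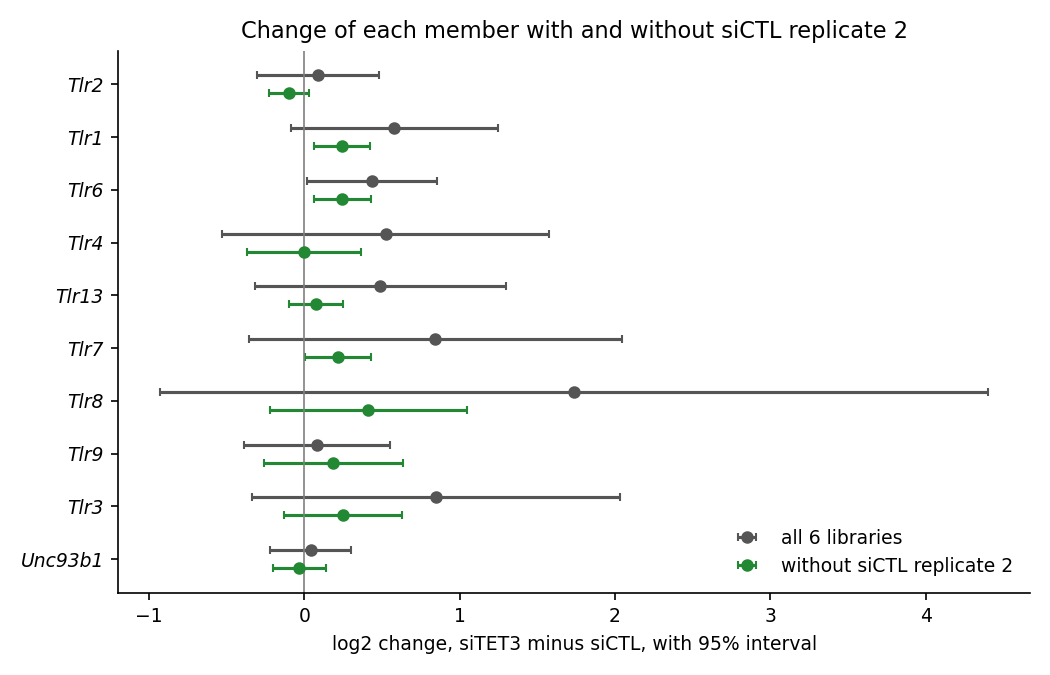
Log2 change of each gene, siTET3 minus siCTL, on the log2(value + 1) scale with its 95% interval, in grey with all 6 libraries and in green without siCTL replicate 2. Leaving out that library moved the highest value from 1.74 to 0.41 (both Tlr8) and the lowest from 0.04 (Unc93b1) to -0.10 (Tlr2), and the intervals shortened.

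The low values of siCTL replicate 2 went with base content. Against the mean of siCTL replicates 1 and 3, siCTL replicate 2 held 0% of Tlr8, 27.3% of Tlr7, 28.2% of Tlr3, 33.0% of Tlr4 and 42.3% of Tlr13, whose transcripts have a GC content between 39.4% and 43.6%. It held 49.7% of Tlr1, 67.0% of Tlr6 and 68.5% of Tlr2, with GC contents of 45.1%, 45.6% and 49.3%. For Unc93b1 and Tlr9, the GC-rich genes of the set at 57.3% and 56.2%, it held 85.9% and 121%. Across the 10 genes, Pearson's r between GC content and the log2 deviation of siCTL replicate 2 was 0.77, and 0.93 over the 9 genes without Tlr8, given as a description since the genes share these libraries.

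Genes at large followed the same gradient. When the genes tested were divided by GC content into 5 groups of 2316, the median log2 deviation of siCTL replicate 2 went from -0.53 in the group of lowest GC, through -0.15, 0.04 and 0.12, to 0.26 in the group of highest GC. Of all genes tested, 39.1% were lowest and 39.2% highest in that library. The median deviation of the 10 genes was -1.12, beside -0.01 over all genes tested. After a smooth trend over GC content had been removed from every library, it was -0.79 beside -0.01. The genes moved unequally with this removal. The deviation of Tlr4 went from -1.57 to -0.79, that of Tlr7 from -1.87 to -1.29, that of Tlr9 from 0.31 to 0.10, that of Tlr2 from -0.55 to -0.56 and that of Unc93b1 from -0.22 to -0.46. With the trend removed, the median log2 change of the 10 genes was 0.29, and 0.08 when siCTL replicate 2 was also left out. Limma called 0 of the 10 in both, where 0.423% and 2.04% of genes were higher and 0.0691% and 1.24% lower.

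Coding stretches of 60 bases show what these contents look like in the genes themselves. Each was taken where the share of G and C was closest to that of the whole transcript, and G and C are in capitals (GRCm38). The AT-rich pair is Tlr4 at chr4:66833897-66833956 (plus strand) and Tlr3 at chr8:45402950-45403009 (minus strand), each with 24 G or C. The GC-rich pair is Tlr9 at chr9:106223617-106223676 and Unc93b1 at chr19:3935197-3935256 (both plus strand), each with 34.
Tlr4: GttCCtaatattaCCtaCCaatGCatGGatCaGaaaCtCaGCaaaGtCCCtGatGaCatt
Tlr3: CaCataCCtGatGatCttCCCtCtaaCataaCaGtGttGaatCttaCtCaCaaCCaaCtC
Tlr9: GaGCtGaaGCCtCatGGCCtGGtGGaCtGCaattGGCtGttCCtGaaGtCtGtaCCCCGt
Unc93b1: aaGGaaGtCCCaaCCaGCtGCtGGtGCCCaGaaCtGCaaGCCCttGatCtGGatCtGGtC

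**Figure D4:**
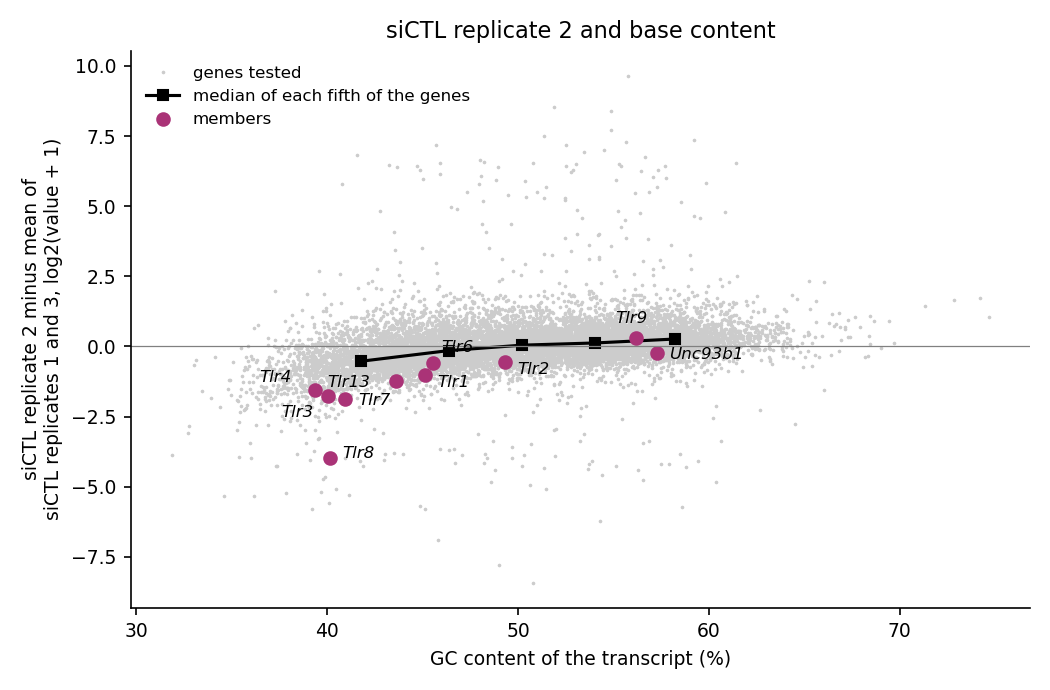
Log2 deviation of siCTL replicate 2 from the mean of siCTL replicates 1 and 3 against the GC content of the transcript, with a grey point for each gene tested, squares for the medians of 5 equal groups of genes and circles for the 10 genes described. The medians climb from -0.53 to 0.26, and the circles lie at or below the squares near them except that of Tlr9.

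The other genes of the pathway were grouped in 7 lists by role, with 77 genes of which 76 were found and 73 tested. Only Irf7, the interferon regulatory factor that drives type I interferon genes downstream of Tlr7 and Tlr9, passed. It was at 2701, 2327 and 3087 normalised reads in the siCTL replicates and at 7588, 7125 and 6866 in the siTET3 replicates. Irf7 rose 2.67-fold, a log2 change of 1.42 from 1.12 to 1.72 (limma adjusted p = 0.00916). The change was 1.32 without siCTL replicate 2 (limma adjusted p = 0.000754) and 1.38 to 1.45 without siTET3 replicates 1, 2 and 3 in turn, where limma adjusted p-values of 0.125, 0.104 and 0.112 did not pass. No pathway gene was called lower. The median log2 change over the 73 genes was -0.02, with 35 positive, and without siCTL replicate 2 it was 0.08, with 47 positive and 2 called higher. The second of these was Rel, a subunit of nuclear factor kappa B named after its values were seen, with a log2 change of 0.35 (limma adjusted p = 0.0480).

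Upstream of the receptors, 0 of 7 tested genes for co-receptors and ligand delivery passed in limma. Cd180, a receptor-like surface protein, was at 4072, 2299 and 4383 normalised reads in the siCTL replicates and at 4898, 4990 and 5255 in the siTET3 replicates. Its groups did not overlap, where 16.1% of genes tested were likewise higher without overlap. The log2 change of Cd180 was 0.55, or 0.26 without siCTL replicate 2 (limma adjusted p = 0.378 and 0.0783). The log2 change of Ly86, which binds Cd180, was 0.37, or 0.15 without that library (limma adjusted p = 0.391 and 0.323). The median of the list was 0.37 and 0.15 in these fits.

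Genes that fold, move or feed the endosomal receptors did not pass either. Among 14 tested genes of folding, trafficking and endosomal nucleic acid handling the median log2 change was -0.05, with 7 positive. Pld3, an endolysosomal exonuclease, had a log2 change of -0.24, and Dnase2a, the lysosomal endonuclease for DNA, of 0.18 (limma adjusted p = 0.378 for both). Of 5 endosomal proteases, which cut the endosomal receptors into their working form, 1 was positive. Ctsk, encoding cathepsin K, was at 18766, 18672 and 18300.1 normalised reads in the siCTL replicates and at 14950, 15239 and 15712 in the siTET3 replicates. These groups did not overlap, where 15.5% of genes tested were likewise lower without overlap, and siCTL replicate 2 lay between the other 2. The log2 change of Ctsk was -0.28, from -0.48 to -0.09 (limma adjusted p = 0.311). Leaving out siCTL replicate 2 gave an adjusted p of 0.0510 by limma, which was 0.0223 with the GC trend also removed, at a log2 change of -0.30. DESeq2 on recovered reads called it lower with all libraries (adjusted p = 0.000181). Ctsl, encoding cathepsin L, was at -0.17 on the log2 scale (limma adjusted p = 0.507).

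Of the signalling genes downstream, none but Irf7 passed with all libraries in limma. Among 5 tested adaptors with a TIR domain or a related role, Tirap, which brings Myd88 to the surface receptors, had a log2 change of 0.16 and Myd88 of -0.08 (limma adjusted p = 0.424 and 0.581). Among 18 kinases and ubiquitin ligases the median was 0.11, with 13 positive and 0 called in limma. Tab3, a partner of the kinase Tak1, was at 0.53 and Tbk1, a kinase of interferon regulatory factors, at 0.20 on the log2 scale (limma adjusted p = 0.328 and 0.380). The 12 transcription factors had a median of -0.06 and the 12 negative regulators one of -0.06, with 4 positive in each. Il1rl1, a receptor that restrains the adaptors, had a log2 change of 0.36, and Zc3h12a, a ribonuclease that degrades inflammatory transcripts, of -0.25 (limma adjusted p = 0.339 and 0.362).

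**Figure D5:**
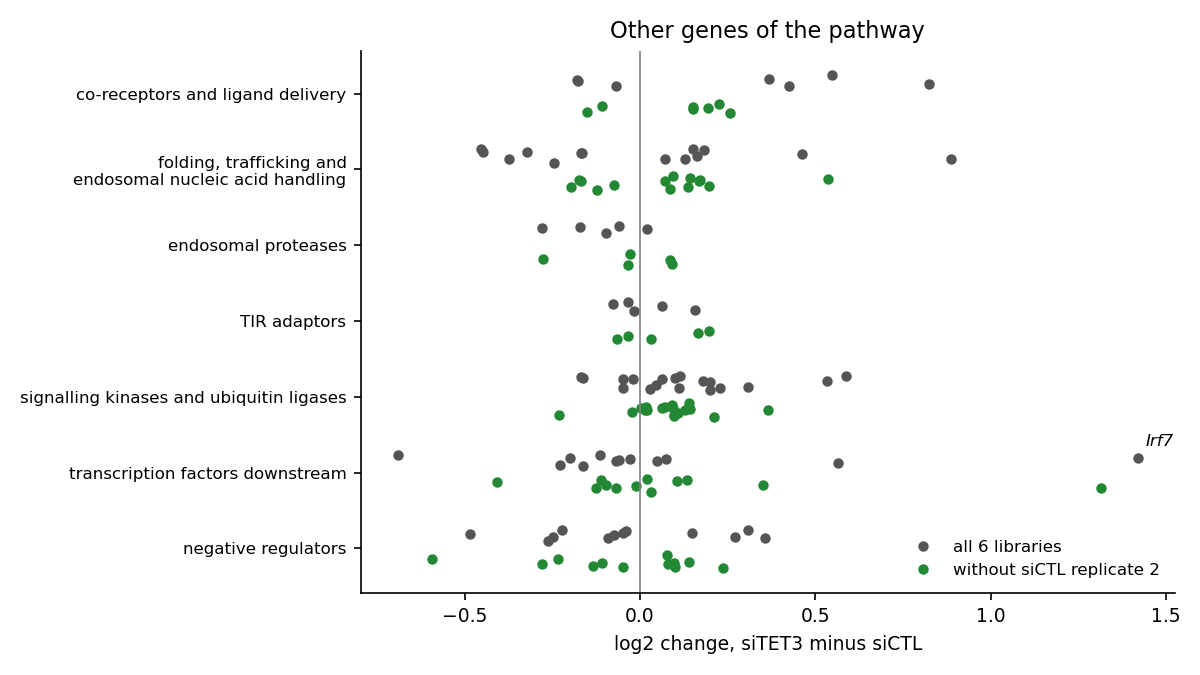
Log2 change, siTET3 minus siCTL, of each tested gene in the 7 pathway lists, in grey with all 6 libraries and in green without siCTL replicate 2. Irf7 lies apart at 1.42 and 1.32, while the list medians with all libraries lie between -0.10 and 0.37.

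Promoters were searched as a description of sequence. Windows from 250 bases before to 50 bases after the start of a gene were held in the RefSeq promoter table (GRCm38.p6) for 7 of the 10 genes, in 9 windows; Tlr4, Tlr7 and Unc93b1 were not matched. Motifs were searched on both strands. The core of an interferon response element, which is GAAA, 2 bases of any kind and GAAA, was found in Tlr6 alone among these genes, and in 3.44% of all 32851 windows. The STAT motif TTCNNNGAA was found in Tlr1, Tlr6 and Tlr8, and in 8.30% of windows. The core GAGGAA bound by PU.1 was found in Tlr1, Tlr8, Tlr9 and Tlr13, and in 28.3% of windows, and GGG with CC after 5 bases of any kind, like a nuclear factor kappa B site, in Tlr2, Tlr3 and Tlr6, and in 50.8% of windows. A match is a description of letters and not a site.

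The stretch of Tlr6 is shown because this gene had the smallest p of the 10 and, of the 7 genes with a promoter window, was the only 1 to hold the interferon response core. It lies at chr5:64959260-64959289 (minus strand, GRCm38.p6), and its matches begin 116 bases before the RefSeq start. In GENCODE, whose Tlr6 starts farther upstream, the stretch lies 808 bases inside the gene and in no annotated exon. Capitals mark 2 overlapping matches, which read as the interferon response core on the strand opposite to the gene.
Tlr6: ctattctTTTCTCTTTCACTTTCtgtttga

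Tlr6 was also compared with every other gene of a mean of at least 100 normalised reads over the 6 libraries. The 3 most alike on the log2 scale were the nuclear pore genes Nup205 and Nup98 and the gene 9930021J03Rik, with Pearson's r of 0.9997, 0.9997 and 0.999. As the highest r of a search through many genes over 6 libraries, these values are a description only. Nup205 was at 5758, 4244 and 5914 normalised reads in the siCTL replicates and at 6344, 6702 and 6917 in the siTET3 replicates. As with Tlr6, siCTL replicate 2 was its lowest library, and the limma adjusted p of all 3 genes was 0.374. The adjustment can give the same value to genes of unequal p. Because RNA was taken from bulk cultures, fewer cells that express a gene and less RNA per cell cannot be told apart for any gene above.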

How the data were processed

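Total RNA of RAW 264.7 cells went into stranded mRNA libraries, 3 per group, per the labels' protocols. The authors deposited a signal value per gene and library, which is a gene count divided by 1 size factor per library; in every library 100% of the values gave whole reads (tolerance 0.001) when divided by what 1 read is worth, and these recovered reads were used where named. The authors also deposited log2 fold changes, here turned to siTET3 over siCTL, with p-values and adjusted p-values. The build was GRCm38 (mm10) per the submitters' processing notes; the sources used here do not name an aligner or counter. The sheets that repeat or select from the full table were not used here.

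Groups were compared with limma 3.58.1 (R 4.3.3), using a variance trend, on log2(value + 1), group as the only term, over 11591 genes with a mean of at least 10. P-values were adjusted by Benjamini-Hochberg over all of them with a threshold of 0.05; intervals cover 95%. This scale understates changes of low genes. Alternatives used edgeR 4.0.16 and DESeq2 1.42.0 on recovered reads, other scalings, filters and pseudocounts, loess removal of the GC trend (span 0.3, 11580 genes), and each library left out. The fit without siCTL replicate 2 by edgeR and that with sample weights were chosen after seeing the data. The limma fit was tried on simulated counts. These held no library that stood apart and no GC trend, so the trial does not cover a library like siCTL replicate 2. Annotation came from GENCODE M21, which placed 21963 of 22027 identifiers; coordinates are 1-based.

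Members and lists were chosen with earlier results of these data known. Genes named are Tet3, the 10 members, up to 4 called genes of each pathway list or else the 2 of smallest p, and the 3 most like the member of smallest p; others are said to be named after their values were seen. Of the pathway genes, Tasl was not matched. A comparison of protein sequences was not run.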

Additional observations from a re-analysis of the deposited data

How the results depend on the processing

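No member was called under any setting tried but sample weights, which gave siCTL replicate 2 a weight of 0.0665 against 0.504 to 3.49 elsewhere. With those weights, chosen after seeing the data, Tlr3 and Tlr6 were called higher (log2 0.46 and 0.23, limma adjusted p = 0.0384 for both), 2 members in all, beside 1510 genes higher and 1281 lower; Tlr2, Tlr9 and Unc93b1 turned to -0.064, -0.039 and -0.042 and Ctsl to 0.011, and 10 pathway genes were higher and 7 lower. Leaving out each library in turn moved Tlr2 between -0.10 and 0.19, Tlr4 between -0.00021 and 0.93, Tlr9 between -0.14 and 0.19 and Unc93b1 between -0.033 and 0.10, and called 2 to 197 genes higher, 0 to 123 lower and 0 to 2 pathway genes higher. With edgeR without siCTL replicate 2, Tlr2, Tlr4 and Unc93b1 were at -0.10, -0.027 and -0.036, with 316 genes higher and 311 lower and 2 pathway genes in each direction. With the GC trend removed and that library left out, Tlr2, Tlr4 and Tlr13 were at -0.11, -0.17 and -0.026 and Myd88 at 0.015, with 236 genes higher, 144 lower and 1 pathway gene lower. DESeq2 called 215 genes higher, 218 lower and 1 pathway gene lower. Over all genes, 34 were higher and 7 lower in the test as reported; 11 were lower without the variance trend, 4 without a filter and 2 with scaling to library size alone. That scaling moved the median gene by 0.08 and turned Tet3 to 0.029 and Myd88 to 0.0060; removal of the GC trend turned them to 0.032 and 0.012. The cause was not tested.

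Same-numbered libraries did not deviate together (r = 0.03, -0.06 and -0.10), and differently numbered ones had r from -0.08 to 0.11. These r cannot settle whether the numbers pair the libraries, since siCTL replicate 2 stood far from its own group. A fit with the replicate block called 1 gene higher, 0 lower and 0 pathway genes higher, with Irf7 at an adjusted p of 0.0998 by limma; with the GC trend also removed, it called 4, 0 and 0, with Tet3 at 0.032 and Myd88 at 0.012. The signs of Tlr1, Tlr3, Tlr6, Tlr7 and Tlr8 did not turn in any setting tried. Of the remaining comparisons with alternatives, 280 of members and counts and 271 of other named genes were classed as the same, and 40 of counts as moved. For a gene, the same means its direction and its side of the threshold. For a count it means a number not far off, such as 49 genes higher against 34. Among the comparisons of other named genes, each of 1 gene in 1 setting, 10 newly passed and 5 no longer passed. The 10 were of Ctsk, in several settings, and of Cd180, Il1rl1, Pld3, Tab3, Tirap and Zc3h12a. The 5 were all of Irf7. Tlr8 had at most 26 reads in a library, which limits its precision.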
